A study of Mus musculus with 6 samples.

Results

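The genes described here mark B lymphocytes and the antibody-secreting plasma cells that arise from them: Cd79a, Cd79b, Ms4a1, Pou2af1, Mzb1, Blk, Bank1, Fcrla and Vpreb3. They were measured in liver RNA on an Affymetrix mouse expression array, on which a probe set is a group of short probes to 1 transcript. Every probe set whose platform annotation gave exactly 1 gene symbol, and that symbol a member's, was taken. This gave 12 probe sets for the 9 genes, out of 45101 probe sets in all. The study compared livers of 3 mice lacking sphingosine-1-phosphate (S1P) lyase (KO) with livers of 3 wild-type mice (WT), to ask how loss of the enzyme alters the liver transcriptome. Both genotypes were on a mixed C57BL6 and 129sv background and received no treatment, and each array is 1 mouse. The labels give neither age nor sex, nor a batch or litter, and name no promoter or cell type to which the loss of the enzyme is limited.

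B cells sense antigen through the B cell receptor, a membrane antibody coupled to the signalling chains CD79A and CD79B. Once activated, some of them become plasma cells, which switch off much of the B cell program and secrete antibody. The lipid S1P, which S1P lyase degrades, guides the exit of lymphocytes from lymphoid organs, and the liver is itself a site of blood cell formation before birth.

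All values are on the log2 scale, so a difference of 1 is a doubling, and array values limit precision by the number of arrays. Sgpl1, which encodes S1P lyase, was at 2.46, 2.99 and 2.87 in the 3 KO livers and at 6.65, 6.90 and 6.71 in the 3 WT livers, so the labels matched the targeted gene. Albumin (Alb) lay between 14.2 and 14.3 on all 6 arrays. Correlation over probe sets was 0.9899 to 0.9928 among KO arrays, 0.9868 to 0.9891 among WT arrays and 0.9682 to 0.9761 between genotypes. Of 13370 genes tested with limma, a linear model with moderated variances, 18.6% passed a Benjamini-Hochberg adjusted p of 0.05. Higher in KO were 10.5% and lower 8.09%, and in 19% all KO values lay above all WT values. Signs of RNA handling also separated the genotypes. The difference between probe sets at the 3′ and the 5′ end of beta-actin (Actb), which grows with RNA degradation, averaged 1.33 in KO and 0.89 in WT (two-sided exact permutation p = 0.1, the smallest that 3 against 3 allows). The same 3′ to 5′ difference was 1.01 higher in KO for Pcx and 0.47 higher for Gapdh (exact permutation p = 0.1 for each). The mean of 24 probe sets for poly-A control RNAs was 0.75 higher in KO (exact permutation p = 0.1). The part of these values in the results below was not tested.

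B cell genes were higher in the livers lacking S1P lyase. Of the 9 members, 6 rose (Cd79a, Cd79b, Ms4a1, Pou2af1, Mzb1 and Vpreb3), none fell in limma's test (0 at an unadjusted p under 0.05 too) and 3 were not called (Fcrla, Blk and Bank1), beside 10.5% of all genes tested that were called higher. Among the 6 that rose, Pou2af1 entered the test through its KO values, and its WT level cannot be told from background. In 7 of the 9 all KO values lay above all WT values, beside 19% of all genes. Of these 7, Pou2af1 and Fcrla had WT means of 3.14 and 3.48. Both lay below 3.58, the 6-array mean under which probe sets were left out, so these genes were tested through their KO values. The median difference of the members was 0.87, against -0.05 for all genes tested, whose lower and upper quartiles were -0.24 and 0.23. The member mean per array was 5.83, 5.70 and 5.46 in KO and 4.53, 4.46 and 4.39 in WT, so the genotypes did not overlap. In bulk liver, more cells of a type and more RNA per cell cannot be told apart. With the poly-A controls set to 1 level on all arrays, the median of all genes moved to -0.80. Called higher were then 4 members (Cd79a, Cd79b, Ms4a1 and Pou2af1), beside 2.82% of all genes. Bank1 was called lower, as were 10120 of all 13370 genes. The directions given here are thus relative to the bulk of genes.

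**Figure D1:**
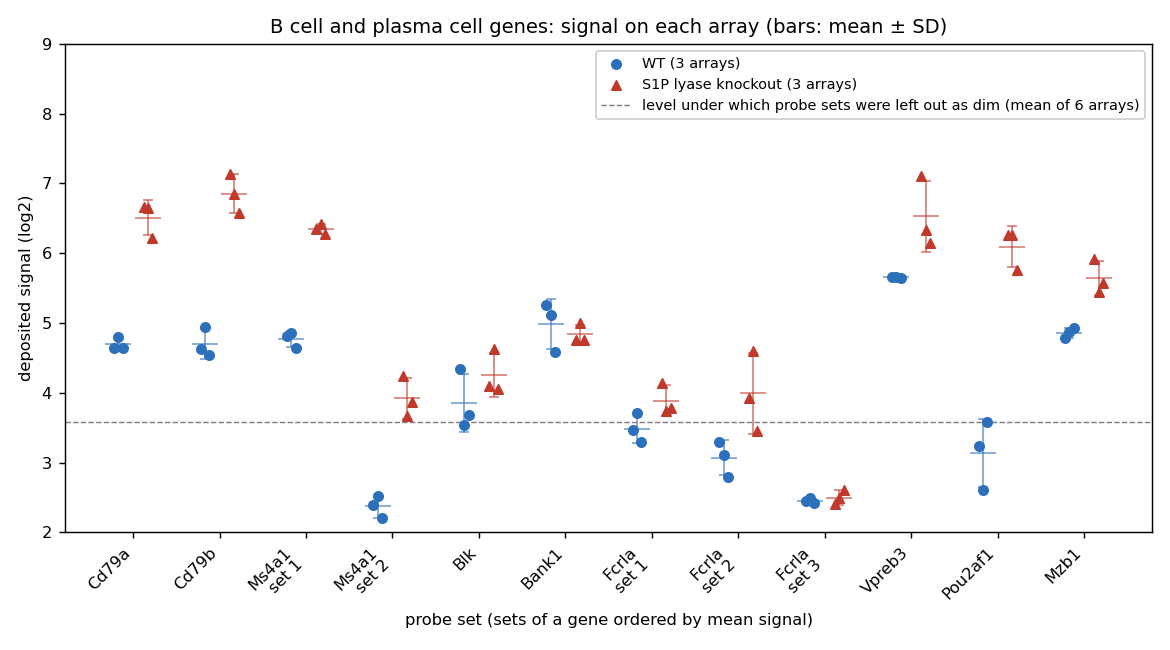
Deposited log2 signal of all 12 probe sets of the 9 genes in the 3 knockout livers (red triangles) and 3 WT livers (blue circles), with bars for mean ± SD and a dashed line at the 3.58 level of the filter on dim probe sets. Knockout and WT points are apart for Cd79a, Cd79b, both Ms4a1 sets, Pou2af1, Mzb1, Vpreb3 and the first and second Fcrla sets, and they overlap for Blk, Bank1 and the last Fcrla set.

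The signalling chains of the B cell receptor rose together. CD79A and CD79B form a pair that carries the receptor's signal into the cell, and both genes are expressed throughout most of the B lineage. Cd79a was at 6.66, 6.65 and 6.22 in KO and at 4.64, 4.81 and 4.64 in WT. Its difference was 1.81 (SE 0.15), a 3.52-fold higher level, with a limma adjusted p of 0.0002535. Cd79b was at 7.14, 6.85 and 6.57 in KO and at 4.62, 4.94 and 4.54 in WT, which differ by 2.15 (SE 0.18) or 4.44-fold (limma adjusted p = 0.0002537). For both genes the lowest KO liver stood well above the highest WT liver. Of all 13370 genes, 175 had a larger difference than Cd79a and 114 a larger one than Cd79b.

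Ms4a1, which encodes the B cell surface protein CD20, rose on both of its probe sets. The brighter one read 6.35, 6.42 and 6.28 in KO and 4.81, 4.86 and 4.64 in WT. The difference was 1.58 (SE 0.11), 2.98-fold, with a limma adjusted p of 0.0001513, the smallest among the 9 genes. The dimmer probe set read 4.24, 3.67 and 3.86 in KO and 2.39, 2.53 and 2.20 in WT. Its difference of 1.55 (SE 0.16, limma adjusted p = 0.0004644 over all 45037 probe sets that are not array controls) was close to that of the brighter one, beside 5.92% of those probe sets called higher. This second probe set lay below the level of 3.58 (6-array mean) under which probe sets were left out of the gene test.

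Pou2af1, which encodes OCA-B, a coactivator that works with octamer-binding transcription factors at antibody gene promoters and other B cell promoters, was far higher in KO. It was at 6.27, 6.27 and 5.75 in KO and at 3.23, 2.61 and 3.57 in WT. The difference was 2.96 (SE 0.25), with a limma adjusted p of 0.0003091. The WT mean of 3.14 lay below the 3.58 level, so the gene entered the test through its KO values, its WT level cannot be told from background, and the size of the difference is not exact.

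Vpreb3 encodes a chaperone-like protein of the surrogate and immunoglobulin light chain family that is found in precursor and some mature B cells. It was at 7.10, 6.33 and 6.15 in KO and at 5.66, 5.66 and 5.65 in WT. One KO liver stood above the others, while the 3 WT livers were nearly equal. The difference was 0.87 (SE 0.23), 1.83-fold, with a limma adjusted p of 0.03456. The call was lost without KO replicate 2 (adjusted p 0.06863) and without WT replicate 1, 2 or 3 (0.08572, 0.07646 and 0.06434 by limma), the difference being 0.87 to 0.97 in these fits. Vpreb3 lies on chromosome 10, as Sgpl1 does, with 245 annotated genes between them, and the other 8 members lie on other chromosomes.

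Mzb1, a protein of the endoplasmic reticulum that helps antibody assembly and secretion in marginal zone B cells and plasma cells, was at 5.92, 5.45 and 5.57 in KO. In WT it was at 4.78, 4.88 and 4.92. The genotypes did not overlap, and the difference was 0.79 (SE 0.14), 1.72-fold, with a limma adjusted p of 0.008482. It was the smallest difference among the 6 members that rose, and 862 genes had a larger one.

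The 3 members that were not called encode intracellular proteins, as Pou2af1 and Mzb1, which rose, also do. Blk, a Src-family kinase downstream of the B cell receptor, was at 4.10, 4.62 and 4.06 in KO and at 4.33, 3.54 and 3.68 in WT. The values overlapped, and the difference was 0.41 (SE 0.23, limma adjusted p = 0.254). Bank1, a B cell scaffold protein with ankyrin repeats, was at 4.76, 5.0 and 4.76 in KO and at 5.26, 5.11 and 4.59 in WT. Its difference was -0.15 (SE 0.18, limma adjusted p = 0.5978), with 2 of 3 WT livers above every KO liver. Fcrla, an intracellular Fc receptor-like protein of B cells, has 3 probe sets, all of them dim. The brightest read 4.14, 3.74 and 3.78 in KO and 3.46, 3.70 and 3.29 in WT, which differ by 0.40 (SE 0.15, limma adjusted p = 0.106). A second Fcrla probe set read 3.92, 4.60 and 3.45 in KO and 3.30, 3.11 and 2.80 in WT, with a difference of 0.92 (SE 0.26, limma adjusted p = 0.05256 over all probe sets). All KO values lay above all WT values on both, and the remaining Fcrla probe set stayed between 2.40 and 2.60 on every array.

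**Figure D2:**
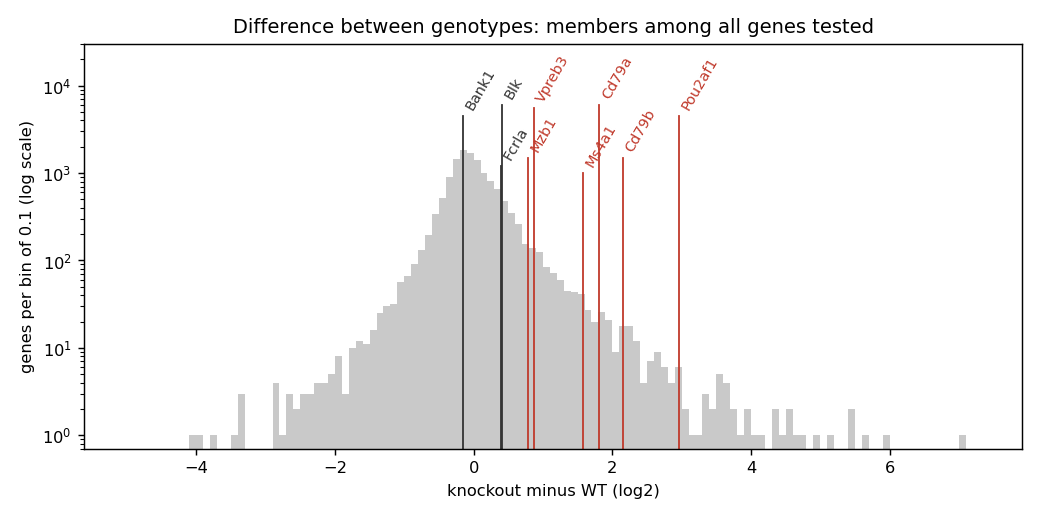
Histogram of the KO minus WT difference (log2) of all 13370 genes tested, with the count of genes on a log axis; vertical lines mark the 9 members. Pou2af1 at 2.96, Cd79b at 2.15, Cd79a at 1.81 and Ms4a1 at 1.58 lie far into the right tail, and Bank1 at -0.15 lies near the centre.

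Promoter sequences are given for members that rose together, to show which letters of B cell factor motifs lie at their starts. The table of RefSeq promoters used here (GRCm38.p6) matched 5 of the 9 members by symbol (Fcrla, Bank1, Cd79a, Pou2af1 and Vpreb3). The 250 bases before the annotated start are shown for the 3 of these that rose, 5′ to 3′ on the gene's strand, with the letters of any searched motif in capitals. The motifs, searched on both strands, were the octamer ATGCAAAT, bound by the factors with which OCA-B works, and the E-box CAGGTG of the E2A factor. Also searched was a form of the site of the early B cell factor EBF1 (TCCC and GGGA with 2 free bases between).
Vpreb3: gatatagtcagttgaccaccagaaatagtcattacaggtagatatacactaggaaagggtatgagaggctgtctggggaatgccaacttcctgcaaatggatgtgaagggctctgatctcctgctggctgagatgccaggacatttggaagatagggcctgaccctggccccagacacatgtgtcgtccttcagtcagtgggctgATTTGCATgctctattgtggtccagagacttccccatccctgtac
Cd79a: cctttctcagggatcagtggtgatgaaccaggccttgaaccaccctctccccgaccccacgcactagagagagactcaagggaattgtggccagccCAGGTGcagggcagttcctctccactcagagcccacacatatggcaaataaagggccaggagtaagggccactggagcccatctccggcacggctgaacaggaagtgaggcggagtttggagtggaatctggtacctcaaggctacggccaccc
Pou2af1: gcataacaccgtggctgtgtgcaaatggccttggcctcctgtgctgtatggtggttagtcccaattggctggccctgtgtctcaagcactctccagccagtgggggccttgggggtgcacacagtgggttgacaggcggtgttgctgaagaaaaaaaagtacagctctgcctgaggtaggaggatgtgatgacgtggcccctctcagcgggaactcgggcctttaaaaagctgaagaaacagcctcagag
Vpreb3 (chr10:75948050-75948299, plus strand) holds the octamer on the opposite strand, read here as ATTTGCAT, at positions -45 to -38 from the start. Cd79a (chr7:24897247-24897496, plus strand) holds the E-box at -154 to -149, and Pou2af1 (chr9:51213440-51213689, plus strand) holds none of these letters in the window. Among the members not called, Fcrla holds the E-box at -69 to -64 and Bank1 at -145 to -140 on the opposite strand. Of all 32851 promoters of this length, 1.60% hold the octamer, 0.78% the EBF1 site and 17.2% the E-box. None of the 3 motifs contains another. A match is a run of letters, not a measured binding site. Only these exact letters were searched, so a site that departs from them, for EBF1 or another factor, was missed.

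Other surface receptors of B cells rose in part. Of 15 tested genes of this list, 7 rose, none fell (1 at an unadjusted p under 0.05) and 8 were not called by limma, with a median difference of 0.52. Cd52, a small glycoprotein on lymphocytes and other leukocytes, rose by 2.11 (SE 0.32, limma adjusted p = 0.004039). Fcmr, the receptor for IgM, was at 6.15, 6.01 and 5.62 in KO and at 4.66, 4.73 and 4.82 in WT, which differ by 1.19 (SE 0.15, limma adjusted p = 0.001865). Tnfrsf13b and Tnfrsf13c, which encode the receptors TACI and BAFF-R for the survival factor BAFF, rose by 1.21 and 0.58. The WT mean of Tnfrsf13b lay just below the 3.58 level. Cd72, an inhibitory coreceptor, rose by 1.17, Ly86, the partner of the receptor RP105, by 1.21 and the tetraspanin Cd37 by 0.78. Cd180, which encodes RP105 itself, differed by 0.05 (SE 0.11, limma adjusted p = 0.7484). A second Cd37 probe set, dimmer in WT, read 6.41, 6.21 and 6.04 in KO and 4.80, 4.48 and 4.63 in WT, 1.59 higher (SE 0.15, limma adjusted p = 0.000291 over all probe sets). Cd22, another inhibitory coreceptor, was at 5.50, 5.65 and 5.41 in KO and at 5.56, 5.45 and 5.07 in WT, which differ by 0.16 (SE 0.15, limma adjusted p = 0.4758). Gpr183, which positions activated B cells, differed by -0.30 without passing the test. Without KO replicate 2 the list's count fell to 3, since Ly86, Tnfrsf13b, Tnfrsf13c and Cd37 were lost (limma adjusted p 0.05341, 0.05384, 0.1147 and 0.1281). Tnfrsf13c and Cd37, on its brightest probe set, were also lost without KO replicate 1 (0.1145 and 0.1242), WT replicate 2 (0.09445 and 0.1033) or WT replicate 3 (0.07449 and 0.07649 by limma). Centred on the poly-A controls, the median of this list turned to -0.22.

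Most of the genes that carry the receptor's signal rose. Of 21 tested genes, 12 rose, 1 fell and 8 were not called by limma, with a median of 0.92. Syk, the kinase that binds the phosphorylated CD79 chains, was at 7.27, 7.04 and 6.64 in KO and at 5.29, 5.03 and 5.24 in WT, which differ by 1.80 (SE 0.17, limma adjusted p = 0.0005829). Btk, the next kinase of the cascade, rose by 1.45 (SE 0.18), and Ptprc, the leukocyte phosphatase CD45, by 2.36 (SE 0.17). Syk, Btk and Ptprc are also expressed by myeloid cells. Dock2, a leukocyte Rac activator, rose by 1.29 on its brightest probe set, whereas without probe sets that may hybridise to several transcripts it read -0.15 (limma adjusted p = 0.3959). The gene that fell was Cd81, a tetraspanin made by many cell types, at 9.83, 9.98 and 9.83 in KO and 10.44, 10.46 and 10.39 in WT (difference -0.55, SE 0.10, limma adjusted p = 0.007448).

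About as many transcription factors of the B lineage rose as were not called. Of 17 tested, 9 rose, none fell (1 at an unadjusted p under 0.05) and 8 were not called by limma, with a median of 0.80. Spib, an Ets factor of B cells and plasmacytoid dendritic cells, was at 6.51, 6.62 and 6.28 in KO and at 3.87, 4.60 and 3.86 in WT, which differ by 2.36 (SE 0.21, limma adjusted p = 0.0003795). Ikzf1, which encodes the factor Ikaros, rose by 1.83 (SE 0.15), Irf8 by 1.61 (SE 0.20) and Spi1, the myeloid and B cell factor PU.1, by 1.40 (SE 0.16). Foxo1, Mef2c, Ets1 and Klf2 rose by 1.20, 1.16, 0.80 and 0.54. Pax5, the factor that holds B cell identity, was at 4.85, 5.11 and 4.81 in KO and at 5.25, 4.96 and 4.99 in WT. These differ by -0.14 (SE 0.13, limma adjusted p = 0.4941). The rest of the genes not called were set out after their values were seen. Ikzf3, with all KO values below all WT values, differed by -0.32 (SE 0.12, limma adjusted p = 0.09789). Id3, Bcl11a, Pou2f2, Foxp1, Bcl6 and Bach2 differed by -0.14, -0.05, 0.18, 0.46, 1.01 and 1.13. Ebf1 was too dim for the gene test on all of its probe sets. Its clearest one, chosen after its values were seen, read 3.88, 3.14 and 2.84 in KO and 2.37, 2.07 and 2.26 in WT, which differ by 1.05 (SE 0.23, limma adjusted p = 0.01917 over all probe sets). Without KO replicate 1 or KO replicate 2 the list's count of 9 fell to 4, and Foxo1 (limma adjusted p 0.06671 and 0.07031), Mef2c (0.06349 and 0.05428), Ets1 (0.06534 and 0.0606) and Klf2 (0.05142 and 0.08188) were among the genes lost. Ets1 was lost without WT replicate 1 too (0.05521), and Klf2 without WT replicate 1 (0.06566) or WT replicate 2 (0.07346 by limma). When a gene's probe sets were averaged, Foxo1 and Ets1 did not pass (0.05298 and 0.06119). The other 3 tested probe sets of Mef2c and of Ets1 did not pass over all probe sets, and another of Ikzf1 differed by -0.06.

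**Figure D3:**
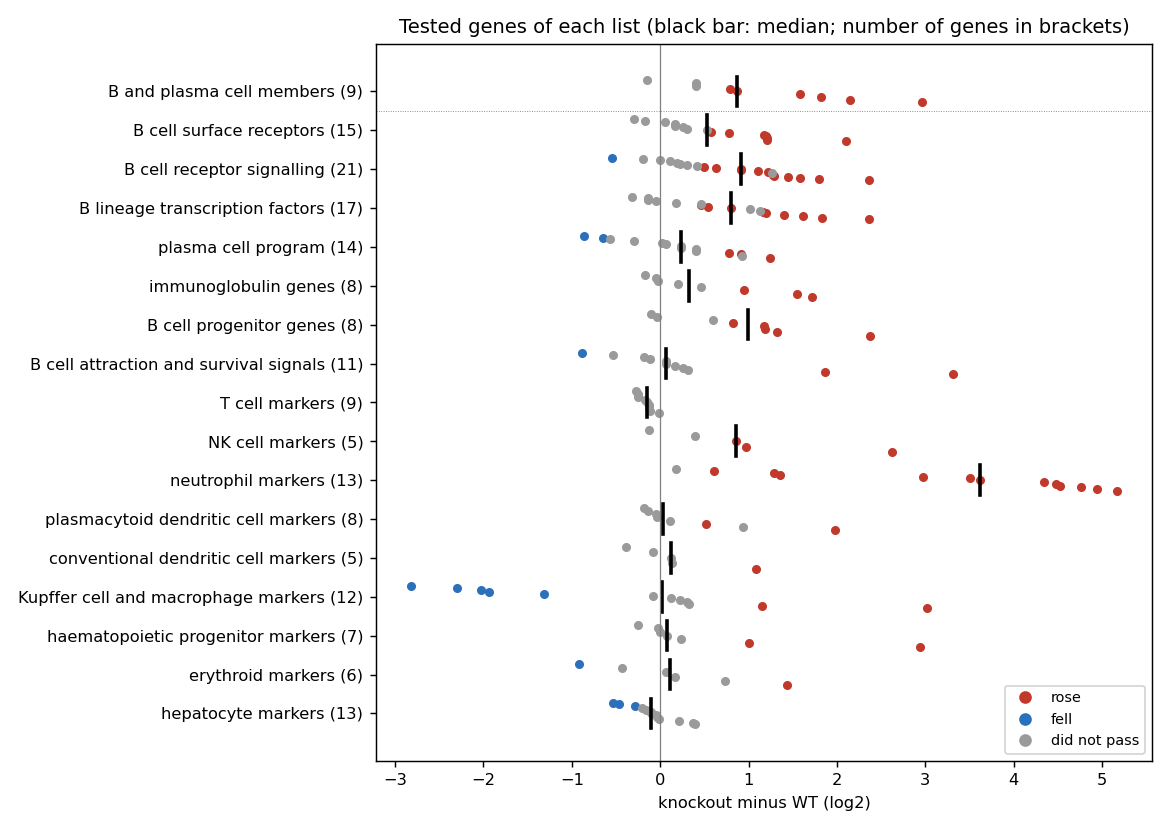
KO minus WT difference (log2, horizontal axis) of each tested gene, 1 row for each list, with the number of genes in brackets; red genes rose and blue genes fell by limma's adjusted p of 0.05, grey ones did not pass, and the black bar is the list's median. The neutrophil row sits farthest right with a median of 3.62, the B cell rows have medians from 0.07 to 1.0, and the T cell row lies around -0.15.

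The plasma cell program did not move as one. Of 14 tested genes, 3 rose, 2 fell and 9 were not called by limma, with a median of 0.24. Those that rose were Tent5c, a poly-A polymerase that stabilises antibody mRNA (1.24, SE 0.24, limma adjusted p = 0.009839), the surface receptor Slamf7 (0.91, SE 0.19, limma adjusted p = 0.01418) and the factor Irf4 (0.77, SE 0.17, limma adjusted p = 0.01948). The WT means of Slamf7 and Irf4, 3.31 and 3.35, lay below the 3.58 level, so both entered the test through KO and the sizes are not exact. Derl3 and Prdx4, which serve the endoplasmic reticulum, fell by 0.87 and 0.65. Their means were 6.03 and 9.42 in KO and 6.90 and 10.07 in WT. Bulk liver does not show which cells gave these signals, so the falls cannot be assigned to plasma cells. Xbp1 and Sdc1, a secretory factor and the plasma cell marker CD138 that hepatocytes express as well, differed by 0.07 and 0.01. Jchain, which joins antibody polymers, was too dim for the gene test at 3.39, 3.0 and 3.29 in KO and 3.87, 3.58 and 3.44 in WT (difference -0.40, limma adjusted p = 0.1228 over all probe sets). Prdm1, the plasma cell factor Blimp-1, and Tnfrsf17, the receptor BCMA, were also too dim. The count that rose was 1 without KO replicate 2 and 5 without WT replicate 3. Slamf7 was lost without KO replicate 2 (limma adjusted p 0.05822), and Irf4 without KO replicate 1 (0.07282), KO replicate 2 (0.0632), WT replicate 1 (0.05118) or WT replicate 2 (0.05521). The call of Derl3 was lost without any of KO replicates 1, 2 and 3 or WT replicates 1 and 2 (limma adjusted p 0.06618 to 0.1292). With probe sets averaged, Prdx4 did not pass (0.0504). Centred on the poly-A controls, the list's median was -0.51.

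Among immunoglobulin genes the IgM heavy chain rose, though not on all of its probe sets. Ighm was at 9.20, 8.70 and 8.18 in KO and at 7.17, 6.76 and 6.99 in WT on its brightest probe set, a difference of 1.72 (SE 0.24), 3.29-fold, with a limma adjusted p of 0.002847. Another Ighm probe set, chosen after its values were seen, read 8.66, 8.37 and 8.07 in KO and 5.68, 6.22 and 5.98 in WT, which differ by 2.41 (limma adjusted p = 0.00013 over all probe sets). One more, likewise chosen, read 4.83, 4.96 and 4.93 in KO and 5.48, 5.18 and 5.19 in WT, -0.38 without passing the test. A further one, also chosen so, read 6.62, 6.25 and 6.60 in KO and 6.81, 6.72 and 6.58 in WT. It differed by -0.21 (limma adjusted p = 0.3974 over all probe sets). A variable segment of the kappa light chain rose by 1.55 and Ighv14-2, one of the heavy chain, by 0.95, the latter from a WT mean of 3.41 below the 3.58 level. The heavy chains of IgA and IgG3 did not pass the test, with Igha differing by -0.05 and Ighg3 by -0.02. Of 20 immunoglobulin genes with a probe set of their own, 8 were bright enough to test, and 3 rose, none fell (0 at an unadjusted p under 0.05) and 5 were not called by limma (median 0.33, or -0.42 centred on the poly-A controls). Segments of this multigene family share sequence, so a probe set named for 1 of them can take up RNA of others.

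Genes of B cell progenitors were tested because the liver can host early B cell development. Of 8 tested, 5 rose, none fell (0 at an unadjusted p under 0.05) and 3 were not called by limma, with a median of 1.0. Cd24a, a surface protein of B cell precursors and of many other immature and epithelial cells, was at 8.86, 8.65 and 8.35 in KO and at 6.38, 6.10 and 6.27 in WT, which differ by 2.37 (SE 0.16, limma adjusted p = 9.336e-05). Cd93, on immature B cells, myeloid cells and endothelium, rose by 1.33 (SE 0.16). Il7r, the interleukin-7 receptor, Sox4 and Rag1, the recombinase that assembles antibody genes, rose by 1.19, 1.17 and 0.82. Rag1 had a WT mean of 3.36, below the 3.58 level, and of 6 other tested Sox4 probe sets 1 passed (0.94 higher, limma adjusted p = 0.006585 over all probe sets). The partner recombinase Rag2 differed by -0.03 and the polymerase Dntt by -0.10. Igll1, a surrogate light chain, was at 6.52, 6.15 and 5.66 in KO and at 5.27, 5.82 and 5.44 in WT, overlapping, with a difference of 0.60 (SE 0.23, limma adjusted p = 0.1105). Vpreb1, the other chain of that complex, was too dim for the gene test and read 3.94, 3.80 and 3.25 in KO and 2.71, 3.09 and 2.74 in WT, which differ by 0.82 (limma adjusted p = 0.02363 over all probe sets). Without KO replicate 2 the count was 2 and without WT replicate 1 it was 3. Il7r was lost without KO replicate 2 (limma adjusted p 0.0675) or WT replicate 1 (0.05211), Sox4 without KO replicate 2 (0.05488) or with its probe sets averaged (0.05176), and Rag1 without KO replicate 1 (0.09589), KO replicate 2 (0.06195), WT replicate 1 (0.09117) or WT replicate 3 (0.0716). Without KO replicate 3, Igll1 passed (0.03658 by limma).

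Signals that draw B cells and keep them alive held 2 genes that rose, Cxcr4 and Ltb, and 1 that fell, S1pr1, of 11 tested. The other 8 were not called by limma, and the median was 0.07. Cxcr4, the receptor that retains leukocytes where its ligand CXCL12 is made, was at 6.26, 6.58 and 5.96 in KO and at 3.17, 2.67 and 3.04 in WT, which differ by 3.31 (SE 0.19, limma adjusted p = 6.018e-05). Its WT mean of 2.96 lay below the 3.58 level, so it entered the test through KO and the size is not exact. Ltb, a lymphotoxin made by B and T cells, rose by 1.87 (SE 0.21). S1pr1, the S1P receptor through which lymphocytes leave tissues and which endothelium also carries, fell by 0.89 (SE 0.15, limma adjusted p = 0.006967). Cxcl12 itself was at 9.16, 8.89 and 8.73 in KO and at 9.72, 9.22 and 9.43 in WT, -0.53 with a limma adjusted p of 0.05935, and passed without WT replicate 2 (-0.65, limma adjusted p = 0.04611). A second Cxcl12 probe set differed by -0.64 with a limma adjusted p of 0.02572 over all probe sets.

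Markers of other blood cells moved beside the B cell genes. Of 13 tested neutrophil markers, 12 rose, none fell (0 at an unadjusted p under 0.05) and 1 was not called by limma. Their mean per array was 8.26 to 8.58 in KO and 5.04 to 5.31 in WT. Among the 12, Mmp8 and Cd177 had WT means of 3.38 and 3.53, below the 3.58 level, and entered the test through KO. S100a8 rose by 5.17 and S100a9 by 4.94, more than any member. Of 15 T cell markers on the array, 9 were bright enough to test. None of these 9 rose and none fell in limma's test (0 at an unadjusted p under 0.05 in either direction). Except for Zap70 their group means lay between 3.80 and 5.35, some near the 3.58 level, so a change in T cells could be missed. With the poly-A controls set equal, all 9 were called lower with a median of -0.90, beside 10120 of all 13370 genes called lower. On the deposited values the T cell markers had a median of -0.15, with array means of 4.79 to 4.86 in KO and 4.88 to 5.08 in WT. Cd3e, a chain of the T cell receptor complex, differed by -0.28 (SE 0.12, limma adjusted p = 0.1506). Zap70, a kinase of T cell receptor signalling, differed by -0.17 on its brightest probe set, but 2 dimmer ones were called lower over all probe sets (-1.19 and -0.69, limma adjusted p 0.006219 and 0.02682), and with probe sets averaged it was called lower (-0.68, limma adjusted p = 0.01554). Among 5 natural killer cell markers 3 rose, with array means of 5.16 to 5.45 in KO and 4.19 to 4.70 in WT, and Gzma, a granzyme, rose by 2.62. Plasmacytoid dendritic cells share Spib, Tcf4 and Irf8 with B cells. Of their 8 tested markers 2 rose, Ly6d by 1.98 and Tcf4 by 0.52, and array means were 6.04 to 6.17 in KO and 5.56 to 5.88 in WT. Ly6d also marks early B cells, and the defining gene Siglech was at 4.28, 4.10 and 4.31 in KO and 4.28, 4.34 and 4.20 in WT. On its brightest probe set the call of Tcf4 was lost without any of KO replicates 2 and 3 and WT replicates 1, 2 and 3 (limma adjusted p 0.05642 to 0.1014). On 4 other tested probe sets Tcf4 was 1.48, 0.91, 0.83 and 0.49 higher (limma adjusted p 0.00409, 0.006459, 0.007464 and 0.0413 over all probe sets).

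Of 5 conventional dendritic cell markers 1 rose, Itgax by 1.08, with array means of 4.90 to 5.02 in KO and 4.57 to 4.91 in WT. Of 12 Kupffer cell and macrophage markers 2 rose and 5 fell, Marco rising by 3.02 and Clec4f, the Kupffer cell lectin, falling by 2.82, with array means of 7.24 to 7.43 in KO and 7.56 to 8.02 in WT. Of 7 haematopoietic progenitor markers 2 rose, Myb by 2.94 and Lmo2 by 1.0, with array means of 5.58 to 5.76 in KO and 5.08 to 5.19 in WT. Of 6 erythroid markers Slc4a1 rose by 1.43 and Car1 fell by 0.92, with array means of 5.17 to 5.48 in KO and 5.10 to 5.26 in WT. Of 13 hepatocyte markers none rose by limma (1 at an unadjusted p under 0.05) and 3 fell, among them Cyp3a11 by 0.53, with array means of 12.6 to 12.7 in KO and 12.6 to 12.8 in WT. The part of any of these cell types in the levels of the B cell genes was not tested.

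**Figure D4:**
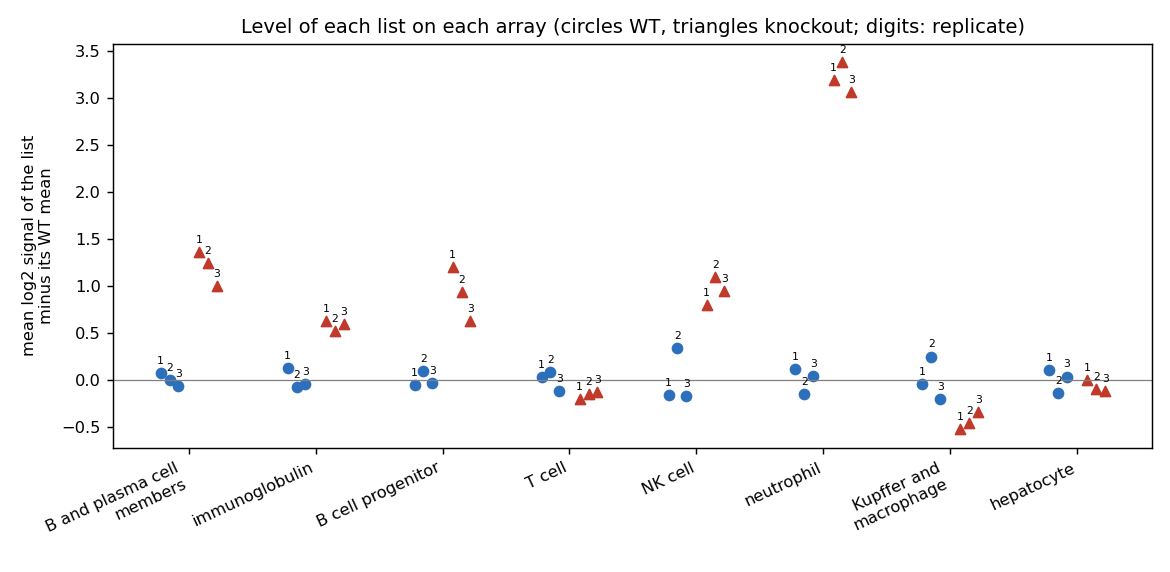
Mean log2 level of the members and of 7 lists on each array, drawn as the difference from the list's WT mean; circles are WT livers, triangles knockout livers, and digits name the mouse. Knockout points lie above all WT points for the members (5.46 to 5.83 against 4.39 to 4.53 as levels), the immunoglobulin, progenitor and NK cell lists and, farthest, the neutrophil list, while all knockout points of the T cell and the Kupffer and macrophage lists lie below the WT points.

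The genes whose 6 values, centred on their own mean, came nearest to the mean centred profile of the 9 members were Adm, Grn, Cdca8, Psap, Acod1, Pik3r5, Anxa2 and Mkrn1. Their root mean square difference from that profile over the 6 arrays was 0.07 to 0.10 log2. The members' own difference from it ran from 0.21 for Ms4a1 to 0.93 for Pou2af1, and the 8 genes are nearer because they were picked for it. Adm, the vasodilator peptide adrenomedullin, was at 6.19, 6.0 and 5.74 in KO and 4.77, 4.60 and 4.60 in WT. Grn and Psap encode the lysosomal proteins progranulin and prosaposin. With 6 arrays and a difference between 2 genotypes, many genes have such a profile.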

How the data were processed

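TRIzol was used to extract the RNA of the 6 livers, which was labelled with biotin for Affymetrix arrays, per the labels. The deposited values, 1 per probe set and array, are on the log2 scale as read from their range (1.68 to 14.3). MAS5 is named in the submitters' processing notes without a version or role, while the sources used here do not give how background was corrected and probes were summarized. The arrays share identical values in 3.80% of probe sets, among them Pou2af1 in KO replicates 1 and 2. No detection calls were used, so a dim value cannot be told from background, and folds of dim genes may be understated. The genotype comes from the labels, and replicate numbers only name the mice.

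Of 45101 probe sets, 64 were array controls. The platform annotation gave 34958 probe sets 1 symbol, 932 several and 9211 none listed, and 34754 of those with 1 symbol were updated by gene identifier to RefSeq names of GRCm38.p6. Probe sets whose 6-array mean lay under the 40th percentile were left out, the brightest remaining probe set stood for its gene, and limma 3.58.1 (R 4.3.3) with an intensity trend was fitted to all 6 arrays, with Benjamini-Hochberg adjustment over 13370 genes. A gene rose or fell where the adjusted p was under 0.05. Each member's every probe set was tested in the same fit without a filter over 45037 probe sets. The fits were checked on simulated data. The members, the 16 gene lists and the tests were chosen with earlier results of these data known. Named were Sgpl1, all members, up to 8 genes with the smallest adjusted p of the surface receptor, transcription factor, plasma cell, immunoglobulin and progenitor lists, up to 4 of each other list and the 8 genes of nearest profile, and others are marked as chosen after their values were seen or are named by their role. Tried as alternatives were the filter, 4 other scalings, the intensity trend, array weights, 3 probe set rules and leaving out each mouse. A search of the members' proteins for receptor tyrosine motifs was not run. Promoter sequences are from RefSeq.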

Additional observations from a re-analysis of the deposited data

How the results depend on the processing

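Cd79a, Cd79b, Ms4a1 and Pou2af1 kept their direction and call under every alternative that tested them (16 for Pou2af1, 17 for the others). Their differences were 1.06 to 1.96, 1.40 to 2.29, 0.83 to 1.65 and 2.21 to 3.19. Pou2af1 passed the main filter through its KO values, its WT mean lying below the filter's level. The size of its difference is therefore not exact, and the stricter filter left it untested. Mzb1 lost its call with poly-A centring (0.04) and in no other fit. Over 102 named genes and 17 alternatives, 1572 gene results kept their side of the threshold with no called sign turned (Blk and Fcrla, not called, read -0.34 and -0.35 with poly-A centring), 90 lost the call, 32 gained one and 8 reversed. Of 13370 genes, poly-A centring called 377 higher and 10120 lower (3.59% of calls higher, against 56.4%). It called 1 member lower and gave a member median of 0.12. The lists then had 2 progenitor, 6 signalling, 1 surface receptor, 4 transcription factor and 0 plasma cell genes higher, and 2 progenitor, 6 signalling, 5 surface receptor, 5 transcription factor, 4 immunoglobulin, 6 plasma cell and 7 attraction genes lower. Reversed there were Cd209a (-0.63), Flt3 (-0.62), Igk (-0.55), Tal1 (-0.52), Tcf4 (-0.23), Klf2 (-0.21) and Tnfrsf13c (-0.17), and without _x_at and _s_at probe sets Dock2 (-0.15). Hepatocyte centring called 562 genes lower (71.5% of calls higher) and 1 plasma cell gene lower. With a filter at the 60th percentile, 6 members were tested (Pou2af1, Blk and Fcrla were left out) with a median of 1.22, and 1 attraction, 3 progenitor and 1 plasma cell gene rose. Averaging probe sets left 1 plasma cell gene lower, no filter gave 1 immunoglobulin gene lower and array weights 1 surface receptor lower, and the cause was not tested. Leaving out 1 mouse gave 775 to 1447 genes higher and 528 to 941 lower, with fewer arrays in the fit, and 5 to 6 members higher. The list counts were then 3 to 7 surface receptors, 4 to 11 transcription factors, 1 to 5 plasma cell and 2 to 6 progenitor genes higher, and 1 to 2 plasma cell and 1 to 2 attraction genes lower. The member median was 0.65 to 1.06. No paired analysis was possible because the labels give the mice no shared replicate numbers. Signals near the dim level limit what can be said of Jchain, Ebf1, Vpreb1 and most immunoglobulin genes.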

Other observations

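Some immunoglobulin probe sets are given by the annotation to several genes at once, and the comparison of single genes leaves them out. There were 13 such probe sets naming immunoglobulin genes alone. By limma over all probe sets, 4 of them were called higher in KO and 0 lower, beside 5.92% of all probe sets called higher. They were set out after their values were seen. Of these 4, 3 carry the same 5 kappa chain names, Igkc among them, so they are not independent. They read 8.84, 8.58 and 8.73 in KO and 6.24, 6.0 and 6.42 in WT on the first (2.49 higher), 8.92, 8.89 and 8.89 in KO and 6.55, 6.35 and 6.64 in WT on the second (2.39), and 8.66, 8.39 and 8.45 in KO and 6.61, 6.33 and 6.46 in WT on the third (2.03). KO and WT did not overlap on any of the 3. The fourth, named for Iglc1 and Iglv1 of the lambda chain, was dimmer, at 3.89, 3.53 and 4.24 in KO and 2.88, 3.02 and 2.93 in WT (0.95 higher). The differences of the probe sets not called ran from -0.46 to 0.16. The lowest, named for Ighv14-2, Ighg3 and Ighm, read 3.50, 3.49 and 3.61 in KO and 3.90, 3.84 and 4.24 in WT. All its KO values lay below all WT values (limma adjusted p = 0.05694 over all probe sets).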
